A study of Homo sapiens with 16 samples.

Results

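The mesenchymal genes described here are 10 genes of the epithelial-mesenchymal transition (EMT), read from the rows with their symbols among 56832 gene names: the transcription factors ZEB1, ZEB2, SNAI1, SNAI2, TWIST1 and PRRX1, the intermediate filament gene VIM, the N-cadherin gene CDH2, and the matrix genes FN1 and SPARC. They were chosen by name, with earlier results of these data known, and all 10 were among the 23100 genes past the low-count filter. RNA was sequenced from 2 lines labelled as small cell lung cancer (SCLC) cells, H69M and H69, each carrying a stable lentiviral shRNA against EIF6 (sheIF6) or the control shRNA (shNTC, labelled as WT genotype). From each, cytoplasmic RNA of a detergent lysate and polysomal RNA of sucrose gradient fractions were taken. The 8 groups were H69M sheIF6, H69M shNTC, H69 sheIF6 and H69 shNTC in each fraction, with 2 libraries per group and 16 in all. All were grown in RPMI 1640 with serum and no other treatment, and cells without an shRNA are not among the groups. The labels do not say how H69M was derived, whether the infected cells were a pool or a clone, or whether the 2 libraries of a group came from separate cultures. The p-values therefore reflect the variation among these libraries, which may be technical. The counts record RNA, not protein, and RNA per cell cannot be told apart from the number of cells that hold it.

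EMT is the shift of cells with tight epithelial contacts towards motile cells with a mesenchymal cytoskeleton and matrix. The ZEB, SNAIL and TWIST factors drive it, with ZEB and SNAIL proteins repressing epithelial genes through E-box DNA, and vimentin, N-cadherin and fibronectin are its usual readouts. SCLC lines are mostly neuroendocrine and grow as floating aggregates, while variants that attach to plastic often carry mesenchymal genes.

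ZEB1 and ZEB2 are textbook targets of the miR-200 family of microRNAs, which epithelial cells express and which ZEB proteins repress in turn. The mature members are shown because they fall into a pair of seed groups that differ at a single base of the seed, in capitals (bases 2 to 8). They are given 5′ to 3′ from RefSeq on GRCh38.p14, where miR-200b, miR-200a and miR-429 lie on chromosome 1 and miR-200c and miR-141 on chromosome 12.
hsa-miR-200b-3p: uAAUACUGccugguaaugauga
hsa-miR-200c-3p: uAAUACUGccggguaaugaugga
hsa-miR-429: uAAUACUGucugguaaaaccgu
hsa-miR-200a-3p: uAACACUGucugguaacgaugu
hsa-miR-141-3p: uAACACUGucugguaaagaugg
Exact 7-base matches to these seeds (CAGTATT or CAGTGTT) were counted in the longest annotated 3′UTR of each gene in GENCODE v29 (GRCh38). The 3′UTR of ZEB1 (2549 bases) held 9 matches, 6 to the first seed and 3 to the second, and that of ZEB2 (5370 bases) held 9, with 5 and 4. As many were found in 0.039% of 2561 genes with a 3′UTR of similar length to that of ZEB1 and in 0.171% of 1173 similar to that of ZEB2. Each set includes the gene itself. FN1 had 2 matches, SNAI2 had 1 and the other 6 genes had 0, while 28.2% of 19142 genes held at least 1. One site for each seed is printed from ZEB1, at chr10:31528562-31528584 and chr10:31528031-31528053 on the plus strand, and from ZEB2, at chr2:144388631-144388653 and chr2:144388669-144388691 on the minus strand, with the seed match in capitals.
ZEB1 site for AAUACUG: tgtcttcaaacctggCAGTATTa
ZEB1 site for AACACUG: caaaatcatcagaatCAGTGTTt
ZEB2 site for AAUACUG: ttgaagcacccatgtCAGTATTa
ZEB2 site for AACACUG: cctttgcaccagcttCAGTGTTa
A match is a stretch of letters and was not tested as a site of regulation.

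Library totals ran from 36005326 to 87269772 counts. EIF6, the factor that keeps the large ribosomal subunit from joining the small one and the target of sheIF6, lies on chromosome 20 (35278911 to 35284985, minus strand). In H69M it stood at 161 and 96.3 CPM (counts scaled to library size) in sheIF6 against 204 and 165 in shNTC cytoplasmic libraries, and at 86.3 and 136 against 323 and 202 in polysomal RNA. In H69 it stood at 65.0 and 67.8 against 116 and 112 in cytoplasmic and at 234 and 220 against 424 and 389 in polysomal RNA. The knockdown libraries were thus the lower ones in all 4 settings, but no difference passed in edgeR's quasi-likelihood test (log2 change -0.52 to -1.24, adjusted p 0.204 to 1). Of 10 neuroendocrine markers, 7 were lower in H69M shNTC than in H69 shNTC cytoplasmic RNA and 5 in polysomal RNA, each by adjusted p, beside 14.1% and 15.6% of all genes. Of 15 markers of non-neuroendocrine adherent cells, 13 and 14 were higher, beside 16.2% and 18.4% of all genes.

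Certain libraries stood apart. The H69M libraries numbered 2 differed from those numbered 1 in neuroendocrine genes. The level of each of 10 neuroendocrine markers, as a share of that in H69 shNTC, had a median over the markers of 6.14% to 18.7% in the libraries numbered 2 and of 0.585% to 1.61% in those numbered 1. Their summed level did not separate the numbers: in sheIF6 cytoplasmic RNA it was 865 CPM in replicate 2 and 977 in replicate 1, while in the other 3 H69M groups replicate 2 had the higher sum. INSM1, a neuroendocrine transcription factor, stood at 256.5 CPM in H69M shNTC polysomal replicate 2 and at 6.38 in replicate 1. A further one was H69 shNTC cytoplasmic replicate 1, which held 17.9 CPM of VIM, 18.7 of FN1 and 8.59 of SPARC against 0.12, 0.72 and 0.12 in replicate 2. It also held 4.18 CPM of the endothelial gene PECAM1, 3.92 of CDH5, 9.23 of VWF and 6.56 of the myeloid gene LYZ. In H69M cytoplasmic libraries LYZ was at 0 in all 4, PECAM1 did not exceed 0.450 and CDH5 did not exceed 0.500. The 4 endothelial markers summed to 18.6 CPM in this library, to 1.44 to 2.44 in the other H69 cytoplasmic libraries and to 7.04 to 8.002 in those of H69M. The leukocyte markers summed to 7.93 CPM there and to at most 0.978 in the other H69 cytoplasmic libraries. PRRX1 had 0 counts there. The source of these reads was not tested. Without this library, which leaves 1 in its group, fewer of the 10 neuroendocrine markers were called lower in cytoplasmic RNA. Their median log2 difference was -5.39, against -4.83 with it. The 7 higher members below stayed higher, and the median of the 10 members was 6.68, against 5.74 with it.

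**Figure D1:**
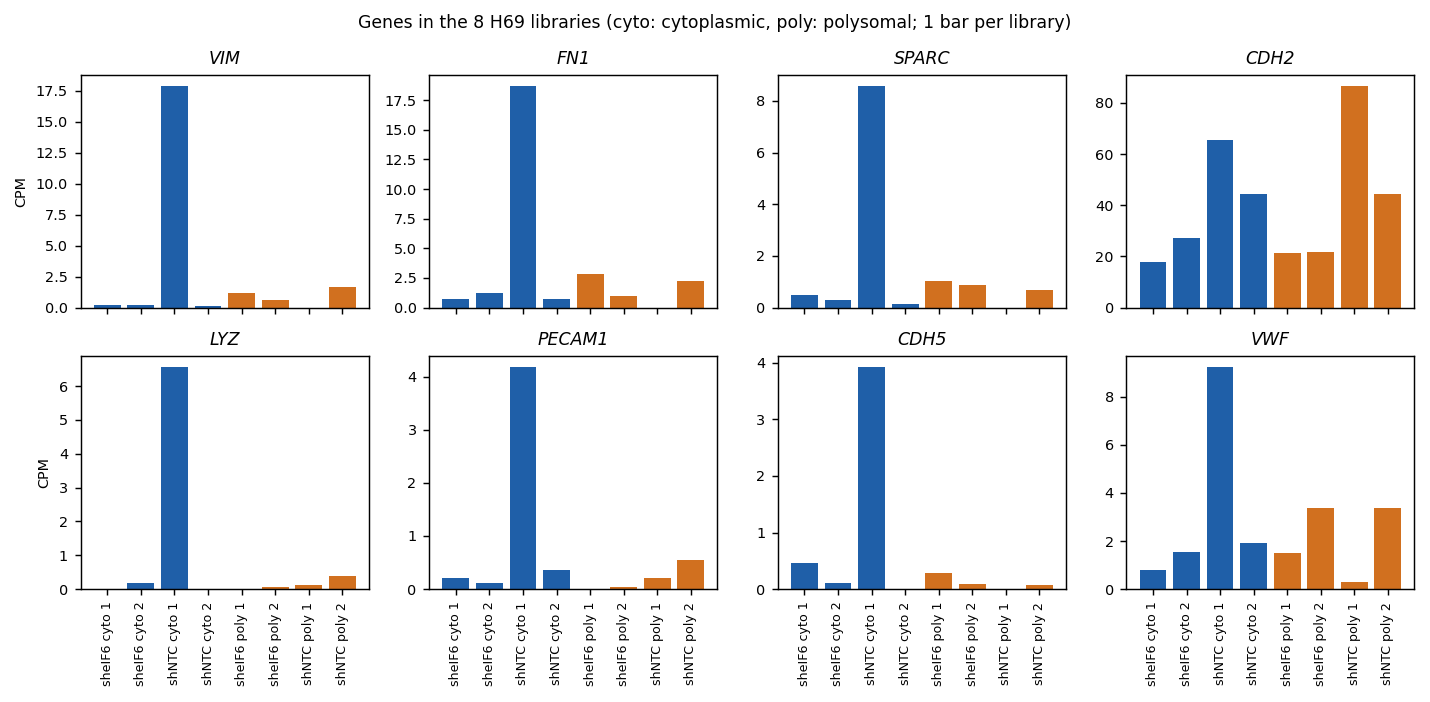
Level in CPM (linear axis from 0) of VIM, FN1, SPARC and CDH2 and of LYZ, PECAM1, CDH5 and VWF in each of the 8 H69 libraries, 1 bar per library, cytoplasmic in blue and polysomal in orange. H69 shNTC cytoplasmic replicate 1 has the tallest bar for all shown genes but CDH2, whose tallest is H69 shNTC polysomal replicate 1 at 86.7 CPM.

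In H69M against H69, 7 of the 10 genes were higher: ZEB1, ZEB2, PRRX1, VIM, CDH2, FN1 and SPARC. SNAI1, SNAI2 and TWIST1 did not pass the test. The same 7 passed in cytoplasmic and in polysomal RNA, in shNTC and in sheIF6 cells, by edgeR's quasi-likelihood test with Benjamini-Hochberg adjustment over 23100 genes at a limit of 0.05. Of all genes, 16.2% passed as higher in shNTC cytoplasmic, 18.4% in shNTC polysomal, 16.9% in sheIF6 cytoplasmic and 19% in sheIF6 polysomal RNA. In each of the 7 all 8 H69M libraries lay above all 8 H69 libraries, as they did in 13.2% of all genes. The median log2 difference of the 10 genes was 5.74 in shNTC cytoplasmic RNA, beside -0.01 over all genes, and 6.84 in polysomal RNA, beside 0.02. Per length, in CPM per kilobase of annotated exons in H69M shNTC cytoplasmic RNA, VIM came first at 1258, then SPARC at 714, CDH2 at 254 and FN1 at 149. The factors followed, TWIST1 at 20.2, SNAI2 at 18.98, ZEB1 at 10.9, PRRX1 at 8.71, ZEB2 at 4.40 and SNAI1 at 0.752.

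**Figure D2:**
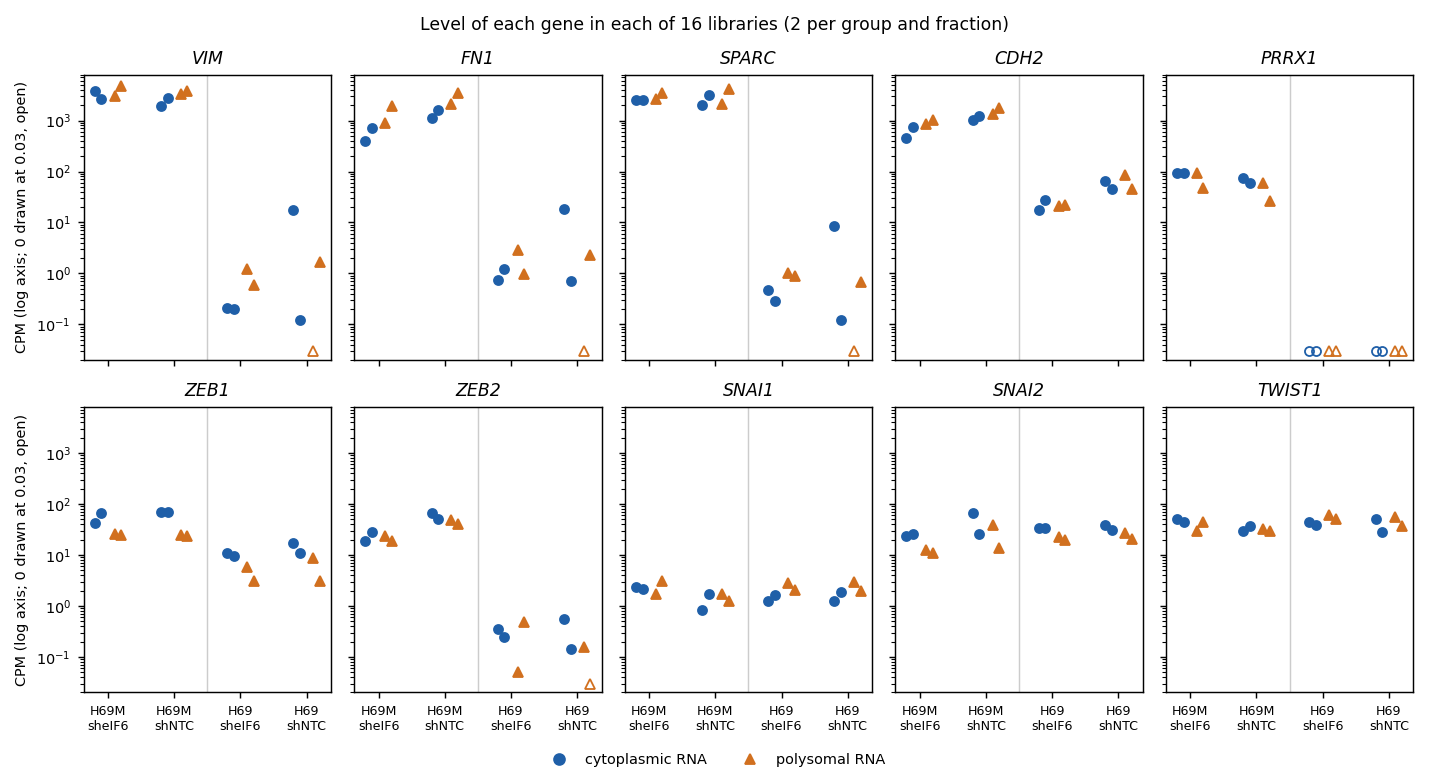
Level of each of the 10 genes in each of 16 libraries, in CPM on a log axis, by line and shRNA, with cytoplasmic RNA as circles and polysomal RNA as triangles; a library with 0 counts is drawn open at 0.03. VIM, FN1, SPARC, CDH2, PRRX1, ZEB1 and ZEB2 lie higher in every H69M library than in any H69 library, and SNAI1, SNAI2 and TWIST1 do not separate the lines.

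ZEB1, a zinc-finger repressor of E-cadherin (chromosome 10, 31318495 to 31529814, plus strand), was present in both lines. Cytoplasmic ZEB1 stood at 43.2 and 65.7 CPM in H69M sheIF6, 69.4 and 71.0 in H69M shNTC, 11.2 and 9.40 in H69 sheIF6 and 17.5 and 11.01 in H69 shNTC libraries. Polysomal ZEB1 stood at 25.3 and 24.97 CPM in H69M sheIF6, 24.7 and 23.2 in H69M shNTC, 5.73 and 3.02 in H69 sheIF6 and 8.76 and 3.12 in H69 shNTC libraries. Each H69M library exceeded each H69 library of its own fraction, and the line difference was a matter of a few-fold rather than of presence and absence. The log2 difference between shNTC cells was 2.30 (SE 0.44, adjusted p = 0.00173) in cytoplasmic and 2.01 (SE 0.44, adjusted p = 0.00387) in polysomal RNA. The antisense gene ZEB1-AS1 overlaps ZEB1, and the library kit does not mark strand, so reads of the overlap cannot be told apart. ZEB1-AS1 ran from 2.02 to 9.26 CPM in H69M and from 2.38 to 8.30 in H69.

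ZEB2, the paralogue of ZEB1 (chromosome 2, 144364364 to 144524583, minus strand), was close to absent in H69. Cytoplasmic ZEB2 stood at 18.4 and 28.4 CPM in H69M sheIF6, 65.8 and 51.8 in H69M shNTC, 0.350 and 0.245 in H69 sheIF6 and 0.566 and 0.140 in H69 shNTC libraries. Polysomal ZEB2 stood at 23.1 and 18.97 CPM in H69M sheIF6, 47.8 and 40.0 in H69M shNTC, 0.0505 and 0.487 in H69 sheIF6 and 0.158 and 0 in H69 shNTC libraries. The lowest H69M library was far above the highest H69 library. Between shNTC cells the log2 difference was 7.37 (SE 0.89, adjusted p = 8.19e-05) in cytoplasmic RNA, 8.69 without H69 shNTC cytoplasmic replicate 1, and 9.10 (SE 1.03, adjusted p = 4.9e-05) in polysomal RNA. The polysomal value rests on 6 counts in H69 shNTC replicate 1. It was 8.09 without replicate 2. Against a floor of 3 counts in replicate 2 alone ZEB2 was at least 591-fold higher in H69M shNTC. That is a bound for replicate 2 and not for the line difference.

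PRRX1, a homeobox factor of embryonic mesenchyme (chromosome 1, 170662728 to 170739419, plus strand), had no count in any of the 8 H69 libraries, which together held 342167826 counts. In H69M cytoplasmic RNA it stood at 92.3 and 93.9 CPM in sheIF6 and 75.6 and 59.4 in shNTC libraries. In H69M polysomal RNA it stood at 94.0 and 48.4 in sheIF6 and 58.4 and 26.0 in shNTC libraries. Against a floor of 3 counts over the H69 group, PRRX1 was at least 2277-fold higher in H69M shNTC cytoplasmic and at least 1103-fold higher in polysomal RNA (adjusted p = 1.04e-05 and 1.52e-05). The floor covers counting error only.

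SNAI1, the SNAIL factor (chromosome 20, 49982999 to 49988886, plus strand), was scarce everywhere. Cytoplasmic SNAI1 stood at 2.35 and 2.19 CPM in H69M sheIF6, 0.850 and 1.69 in H69M shNTC, 1.28 and 1.65 in H69 sheIF6 and 1.27 and 1.90 in H69 shNTC libraries. Polysomal SNAI1 ran from 1.23 to 3.04 CPM in H69M and from 1.96 to 2.89 in H69. With the shRNAs pooled, the lines overlapped in each fraction. Within sheIF6 cytoplasmic RNA both H69M libraries lay above both H69 libraries, and within shNTC polysomal RNA they lay below. The share of all genes separated in these ways is not given here, and neither difference passed the test. The log2 difference was 0.63 (SE 0.51, adjusted p = 0.375) and -0.07 (SE 0.51, adjusted p = 0.931) between sheIF6 cells in cytoplasmic and polysomal RNA. Between shNTC cells it was -0.32 (SE 0.51, adjusted p = 0.685) in cytoplasmic and -0.73 (SE 0.51, adjusted p = 0.292) in polysomal RNA.

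SNAI2, the SLUG factor (chromosome 8, 48917604 to 48921740, minus strand), was expressed in both lines. Cytoplasmic SNAI2 stood at 23.8 and 26.0 CPM in H69M sheIF6, 66.0 and 26.2 in H69M shNTC, 33.1 and 34.2 in H69 sheIF6 and 39.2 and 30.7 in H69 shNTC libraries. Polysomal SNAI2 stood at 12.6 and 10.98 CPM in H69M sheIF6, 37.9 and 13.6 in H69M shNTC, 22.7 and 19.7 in H69 sheIF6 and 27.4 and 21.0 in H69 shNTC libraries. H69M shNTC replicate 1 was the highest library in both fractions, and replicate 2 lay below both H69 shNTC libraries. Between shNTC cells the log2 difference was 0.40 (SE 0.44, adjusted p = 0.542) in cytoplasmic and 0.09 (SE 0.44, adjusted p = 0.900) in polysomal RNA. Between sheIF6 cells it was -0.43 (SE 0.44, adjusted p = 0.495) in cytoplasmic and -0.845 (SE 0.45, adjusted p = 0.158) in polysomal RNA. Both H69M sheIF6 libraries lay below both H69 sheIF6 libraries in each fraction. The share of all genes separated this way is not given here, and neither difference passed the test.

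TWIST1, a basic helix-loop-helix factor of mesoderm and neural crest (chromosome 7, 19020991 to 19117672, minus strand), was likewise expressed in both lines. Cytoplasmic TWIST1 stood at 50.3 and 44.1 CPM in H69M sheIF6, 30.0 and 37.4 in H69M shNTC, 43.9 and 38.0 in H69 sheIF6 and 51.2 and 28.7 in H69 shNTC libraries. Polysomal TWIST1 stood at 29 and 43.9 CPM in H69M sheIF6, 32.8 and 29.2 in H69M shNTC, 60.6 and 49.8 in H69 sheIF6 and 56.8 and 37.5 in H69 shNTC libraries. In cytoplasmic RNA both H69M sheIF6 libraries lay above both H69 sheIF6 libraries, with a log2 difference of 0.20 (SE 0.31, adjusted p = 0.655), and the shNTC libraries overlapped. In polysomal RNA each H69M library lay below both H69 libraries with the same shRNA, and the log2 difference between shNTC cells was -0.61 (SE 0.31, adjusted p = 0.147). It was -0.25 (SE 0.31, adjusted p = 0.594) between shNTC cells in cytoplasmic RNA and -0.60 (SE 0.31, adjusted p = 0.146) between sheIF6 cells in polysomal RNA. None of these passed. The share of all genes separated this way between the lines is not given here, so the order of these libraries is a description.

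VIM encodes vimentin, the intermediate filament of mesenchymal cells (chromosome 10, 17228259 to 17237593, plus strand). Cytoplasmic VIM stood at 3822 and 2604 CPM in H69M sheIF6, 1905 and 2797 in H69M shNTC, 0.206 and 0.204 in H69 sheIF6 and 17.9 and 0.12 in H69 shNTC libraries. Polysomal VIM stood at 3011 and 4689 CPM in H69M sheIF6, 3395 and 3806 in H69M shNTC, 1.21 and 0.585 in H69 sheIF6 and 0 and 1.66 in H69 shNTC libraries. It was among the most abundant of the 10 in every H69M library and under 2 CPM in H69 outside the library that stood apart. The log2 difference between shNTC cells was 8.03 (SE 1.81, adjusted p = 0.00689) in cytoplasmic RNA and 14.23 without that library. It was 12.07 (SE 2.13, adjusted p = 0.00164) in polysomal RNA, where H69 shNTC replicate 2 held all of the control counts. Without polysomal replicate 1 it was 11.08. Against a floor of 3 counts in replicate 1 alone VIM was at least 45631-fold higher in H69M shNTC. That is a bound for replicate 1 and not for the line difference, since replicate 2 held counts.

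CDH2 encodes N-cadherin, the adhesion receptor of mesenchymal and neural cells (chromosome 18, 27950966 to 28177446, minus strand). Cytoplasmic CDH2 stood at 462 and 746 CPM in H69M sheIF6, 1012 and 1251 in H69M shNTC, 17.9 and 27.3 in H69 sheIF6 and 65.5 and 44.5 in H69 shNTC libraries. Polysomal CDH2 stood at 845 and 1044 CPM in H69M sheIF6, 1370 and 1777 in H69M shNTC, 21.4 and 21.6 in H69 sheIF6 and 86.7 and 44.4 in H69 shNTC libraries. Unlike VIM it was present in every H69 library, at 17.9 CPM or more. Between shNTC cells the log2 difference was 4.36 (SE 0.40, adjusted p = 9.05e-06) in cytoplasmic and 4.59 (SE 0.41, adjusted p = 6.87e-06) in polysomal RNA.

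FN1 encodes fibronectin, a matrix glycoprotein that binds integrins (chromosome 2, 215360440 to 215436172, minus strand). Cytoplasmic FN1 stood at 398 and 727 CPM in H69M sheIF6, 1134 and 1581 in H69M shNTC, 0.741 and 1.24 in H69 sheIF6 and 18.7 and 0.72 in H69 shNTC libraries. Polysomal FN1 stood at 886 and 1915 CPM in H69M sheIF6, 2092 and 3430 in H69M shNTC, 2.83 and 0.975 in H69 sheIF6 and 0 and 2.28 in H69 shNTC libraries. The lines were far apart in both fractions. The log2 difference between shNTC cells was 7.12 (SE 1.64, adjusted p = 0.00765) in cytoplasmic RNA, 10.88 without the H69 library that stood apart, and 11.23 (SE 1.95, adjusted p = 0.00146) in polysomal RNA. The polysomal FN1 value rests on H69 shNTC replicate 2, being 10.24 without replicate 1. Against the floor in replicate 1 alone FN1 was at least 34990-fold higher, a bound for that library and not for the line difference. Between sheIF6 cells the cytoplasmic FN1 difference was 9.14 (adjusted p = 0.00328), and 8.82 (adjusted p = 0.0587) without H69 sheIF6 cytoplasmic replicate 1, so that call was lost.

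SPARC encodes osteonectin, a collagen-binding matrix protein (chromosome 5, 151661096 to 151687165, minus strand). Cytoplasmic SPARC stood at 2542 and 2572 CPM in H69M sheIF6, 2042 and 3242 in H69M shNTC, 0.473 and 0.285 in H69 sheIF6 and 8.59 and 0.12 in H69 shNTC libraries. Polysomal SPARC stood at 2655 and 3469 CPM in H69M sheIF6, 2083 and 4116 in H69M shNTC, 1.03 and 0.877 in H69 sheIF6 and 0 and 0.668 in H69 shNTC libraries. Only H69 shNTC cytoplasmic replicate 1 exceeded 2 CPM among H69 libraries. Between shNTC cells the log2 difference was 9.24 (SE 1.60, adjusted p = 0.00135) in cytoplasmic RNA, 14.40 without that library, and 13.14 (SE 1.88, adjusted p = 0.000397) in polysomal RNA. Here too the H69 shNTC counts were all in polysomal replicate 2, with a difference of 12.17 without replicate 1. Against the floor in replicate 1 alone SPARC was at least 39280-fold higher, a bound for that library and not for the line difference.

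**Figure D3:**
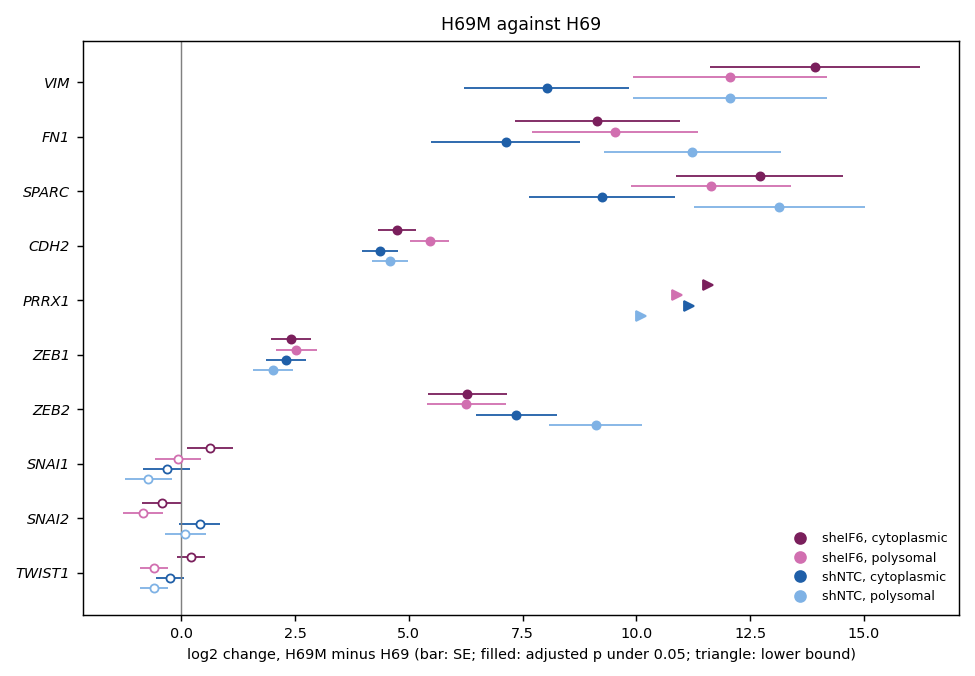
Fitted log2 difference, H69M minus H69, for each gene in sheIF6 and shNTC cells and in cytoplasmic and polysomal RNA, with the standard error as a bar; filled points have an adjusted p under 0.05 and triangles are lower bounds for PRRX1, which had no count in H69. The points of SNAI1, SNAI2 and TWIST1 lie between -0.845 and 0.63 and are open, and the lowest filled ones are those of ZEB1, between 2.01 and 2.52.

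In the wider EMT lists, of other factors and of mesenchymal genes, the calls between the control lines were mostly higher in H69M. The share called lower was below that of all genes. In shNTC cytoplasmic RNA, 4 of 10 tested EMT factors other than the members were higher and 1 was lower in H69M, beside the 16.2% and 14.1% of all genes given above. FOXC1 (log2 difference 4.97) and HMGA2 (4.29), both developmental regulators, were higher, while TCF4, an E-protein also used by neural cells, was lower (-1.77). HMGA2 stood at 1.70 CPM in H69 shNTC cytoplasmic replicate 1 and had no count in replicate 2. Against a floor of 3 counts in replicate 2 alone HMGA2 was at least 278-fold higher, a bound for that library and not for the lines. Its call was lost by DESeq2 (adjusted p = 0.0687), with no low-count filter (0.0845), and without H69M shNTC cytoplasmic replicate 1 (0.0906) or 2 (0.0578). The median log2 difference of these 10 was 3.71, or 2.52 with genes absent from a line at their bound. PRRX2 was also higher, at a mean of under 100 counts per library.

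Of 20 other mesenchymal structure and matrix genes, 16 were higher and 1 lower in H69M shNTC cytoplasmic RNA (median 6.40). The contractile genes ACTA2 (13.42) and CALD1 (10.80) and the growth factor receptor gene PDGFRB (10.39) were higher, and THY1 was lower (-2.43). CALD1 stood at 1.23 CPM in H69 shNTC cytoplasmic replicate 1 and at 0.040, or 2 counts, in replicate 2, and its difference was 14.70 (adjusted p = 7.55e-06) without replicate 1. PDGFRB ranged from 9.39 to 14.36 with 1 library left out. Of 16 TGF-beta pathway genes, which act upstream of many EMT factors, 10 were higher and 2 lower (median 2.00), beside 16.2% and 14.1% of all genes. The ligand gene TGFB1 (4.62) and LTBP2 (3.83), of the LTBP gene family, were higher, and the activin gene INHBA (-3.13) and the co-receptor gene TGFBR3 (-1.58) were lower. Without H69 shNTC cytoplasmic replicate 1 the calls of THY1, INHBA and TGFBR3 were lost. They were also lost without H69M shNTC cytoplasmic replicate 1, and those of THY1 and TGFBR3 without its replicate 2. The call of THY1 was lost as well without H69 shNTC cytoplasmic replicate 2 or H69 sheIF6 cytoplasmic replicate 1 or 2. With 1 library left out the differences ran from -2.60 to -2.26 for THY1, -4.66 to -2.39 for INHBA and -1.91 to -1.15 for TGFBR3. Without H69 shNTC cytoplasmic replicate 1 the medians of the 20 mesenchymal and the 16 TGF-beta genes were 6.83 and 2.00.

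Of 20 epithelial genes, 10 were lower in H69M shNTC cytoplasmic RNA, beside 14.1% of all genes, and 3 were higher, a share close to the 16.2% of all genes (median -2.40). The splicing factor gene ESRP1 (-5.87), OVOL2 (-4.93), a repressor of ZEB1, and the polarity gene LLGL2 (-4.22) were lower. With H69M shNTC cytoplasmic replicate 1 left out, ESRP1 no longer passed (adjusted p = 0.0551). Those higher in H69M were the simple-epithelial keratin genes KRT18 (2.29) and KRT8 (1.82) and the tight junction gene OCLN (1.34). The call of OCLN was lost without H69 shNTC cytoplasmic replicate 1 (adjusted p = 0.155) or H69M shNTC cytoplasmic replicate 2 (0.0815). CDH1, which encodes E-cadherin, the classical target of ZEB and SNAIL repression, showed no steady order of the lines. In sheIF6 cells it stood at 1.22 and 1.68 CPM in H69M against 2.74 and 6.83 in H69 cytoplasmic libraries, and at 2.46 and 3.24 against 4.04 and 6.19 in polysomal libraries. In shNTC cells it stood at 4.02 and 5.80 CPM in H69M against 3.03 and 7.86 in H69 cytoplasmic libraries, and at 8.30 and 9.52 against 3.66 and 7.43 in polysomal libraries. The H69M libraries were thus the lower ones with sheIF6 in both fractions, the higher ones with shNTC in polysomal RNA, and overlapped H69 with shNTC in cytoplasmic RNA. The share of all genes separated in these ways between the lines is not given here, so this order is a description. The test of the knockdown change in H69M minus that in H69 called none of the 20 epithelial genes in either fraction. The log2 difference in CDH1 was -1.73 (SE 0.58, adjusted p = 0.037) with sheIF6 and -0.15 (SE 0.56, adjusted p = 0.877) with shNTC in cytoplasmic RNA. In polysomal RNA it was -0.84 (SE 0.57, adjusted p = 0.261) with sheIF6 and 0.68 (SE 0.56, adjusted p = 0.367) with shNTC. The call in sheIF6 cytoplasmic RNA was lost without H69 sheIF6 cytoplasmic replicate 2 (-0.91, adjusted p = 0.358) or H69M sheIF6 cytoplasmic replicate 1 (0.210) or 2 (0.0892). In polysomal RNA the counts higher and lower were 4 and 1 of 10 EMT factors, 15 and 1 of 20 mesenchymal genes, 12 and 1 of 16 TGF-beta genes and 3 and 9 of 20 epithelial genes, beside 18.4% and 15.6% of all genes.

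Markers of other cell types were read in the same libraries. All 6 fibroblast markers were called higher in H69M shNTC than in H69 shNTC cytoplasmic RNA, beside 16.2% of all genes. Their median log2 difference was 7.70, and 7.59 without H69 shNTC cytoplasmic replicate 1, where not all of them passed. Their summed level was 10140 to 16680 CPM in H69M shNTC and 175 to 461 in H69 shNTC cytoplasmic libraries, most of it COL1A1 and COL1A2. COL3A1 ran from 51.2 to 271 CPM in H69M and did not exceed 0.371 in H69. LUM ran from 18.1 to 91.2 CPM in H69M and did not exceed 0.859 in H69, and PDGFRA ran from 3.16 to 12.4 in H69M and from 0.320 to 2.20 in H69. DCN was the low one of the list, with at most 0.681 CPM in H69M and 0.144 in H69. The endothelial sum was 13.7 to 27.6 CPM in H69M polysomal and 7.04 to 8.002 in H69M cytoplasmic libraries, against 0.526 to 4.16 in H69 polysomal libraries. Most of it was VWF, the 1 endothelial marker called higher in H69M in shNTC polysomal RNA (log2 difference 3.01, adjusted p = 0.0235) and in both fractions of sheIF6 cells. The leukocyte sum did not exceed 0.237 CPM in H69M cytoplasmic and 1.50 in H69M polysomal libraries. Whether RNA of other cells had a part in the line difference was not tested beyond these levels.

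Reads over the 5 annotated hairpin genes of the miR-200 family were counted after their values had been seen. They were 2 in 1 of the 8 H69M libraries and 73 over all 8 H69 libraries, 39 of them over MIR429. This is 0.489 per 100000000 counts in H69M (exact Poisson 95% interval 0.0592 to 1.77) and 21.3 in H69 (16.7 to 26.8), and both intervals cover counting error only. The libraries measure long RNA, so these reads are of the transcripts around the hairpins and not of the mature microRNAs printed above. The relation of these reads to ZEB1 and ZEB2 was not tested.

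A promoter window of 300 bases, 250 before and 50 after an annotated start, was available from RefSeq (GRCh38.p14) for 7 of the 10 genes. It was searched on both strands for the E-box letters bound by ZEB and SNAIL proteins, CACCTG and its complement CAGGTG, which 20.6% of 35116 windows hold. The windows of VIM, ZEB2, PRRX1, FN1 and SPARC and both windows of CDH2 held none, and 2 of the 7 windows of ZEB1 held 1 and 3. The window of VIM is printed as that of the most abundant gene, chr10:17227991-17228290 on the plus strand. The window of ZEB1 with 3 matches, chr10:31318966-31319265 on the plus strand, has them in capitals.
VIM window: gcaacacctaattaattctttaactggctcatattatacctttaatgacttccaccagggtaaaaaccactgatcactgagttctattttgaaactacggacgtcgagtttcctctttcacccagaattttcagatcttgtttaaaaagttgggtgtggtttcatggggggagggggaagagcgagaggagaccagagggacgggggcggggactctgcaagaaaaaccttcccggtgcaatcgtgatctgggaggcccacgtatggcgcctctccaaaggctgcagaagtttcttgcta
ZEB1 window: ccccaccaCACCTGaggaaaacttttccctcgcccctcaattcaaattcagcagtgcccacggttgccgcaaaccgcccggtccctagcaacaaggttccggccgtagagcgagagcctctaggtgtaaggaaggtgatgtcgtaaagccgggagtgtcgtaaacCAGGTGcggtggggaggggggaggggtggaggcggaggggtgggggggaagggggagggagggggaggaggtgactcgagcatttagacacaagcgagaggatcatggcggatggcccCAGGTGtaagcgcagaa
No binding was measured, and the letters are a description only.

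Across the 16 libraries, the genes whose log2 CPM ran most alike with VIM among 11341 compared were SERPINB6 (Pearson r 0.992), CAV1 (0.992) and BIN1 (0.990). With ZEB1 they were MIR137HG (0.971), MALT1 (0.970) and TMEM56 (0.970). The libraries belong to 2 lines that differ in these genes, so each r is a description.

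Knockdown of EIF6 gave no call among the 10 genes in either line or fraction by edgeR. The share of all genes called was 0.156% in H69M cytoplasmic, 0.0649% in H69M polysomal, 0% in H69 cytoplasmic and 0.00433% in H69 polysomal RNA. At an unadjusted p under 0.05 there were 1 (CDH2) and 1 (SNAI2) in H69M cytoplasmic and polysomal RNA, and 4 (CDH2, VIM, FN1 and SPARC) and 1 (CDH2) in H69. The count in H69M cytoplasmic RNA was 3 (CDH2, ZEB2 and FN1) both in a fit of H69M alone and without H69 shNTC replicate 1 in both fractions, and 0 without H69M sheIF6 cytoplasmic replicate 1. Of all genes 11%, 8.15%, 3.01% and 4.14% reached that p in the 4 comparisons fitted on both lines. DESeq2 called 0, 0, 0 and 1 in the same order, the last being CDH2, beside 1.97%, 1.43%, 0.338% and 0.381% of all genes.

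CDH2 stood lower in both sheIF6 libraries than in both matching shNTC libraries in each line and each fraction, which held for 0.909% of all genes. In H69M its log2 change was -0.91 (SE 0.35, adjusted p = 0.377) in cytoplasmic and -0.74 (SE 0.35, adjusted p = 0.628) in polysomal RNA. In H69 it was -1.28 (SE 0.36, adjusted p = 0.715) in cytoplasmic and -1.61 (SE 0.36, adjusted p = 0.380) in polysomal RNA. DESeq2 gave CDH2 in H69 polysomal RNA an adjusted p of 0.0146. Without H69 shNTC replicate 1 in both fractions the CDH2 changes in H69 were -0.97 and -1.04 (adjusted p = 1 and 0.976). The test of the difference between lines, H69M minus H69, gave CDH2 0.37 (SE 0.49) in cytoplasmic and 0.87 (SE 0.50) in polysomal RNA and did not pass (adjusted p = 1 in both).

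In H69M, 4 genes were lower without overlap in both fractions, CDH2, FN1, SNAI2 and ZEB2, beside 8.83% of all genes, and SNAI1 was higher in both, beside 8.03%. The log2 change of ZEB2 was -1.33 (SE 0.67, adjusted p = 0.502) in cytoplasmic and -1.06 (SE 0.67, adjusted p = 0.728) in polysomal RNA. That of FN1 was -1.27 (SE 1.27, adjusted p = 0.771) and -0.98 (SE 1.26, adjusted p = 0.916). That of SNAI2 was -0.89 (SE 0.45, adjusted p = 0.499) and -1.12 (SE 0.45, adjusted p = 0.541), and it rests on H69M shNTC replicate 1, with -0.06 and -0.19 when that library was left out of the cytoplasmic or polysomal comparison. In a fit of H69M alone the changes were -1.34 (SE 0.30) and -1.06 (SE 0.30) for ZEB2 and -1.28 (SE 0.47) and -0.98 (SE 0.47) for FN1. None of these passed the test in either fit.

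The other genes of H69M kept no common direction. SNAI1, at about 1 to 3 CPM, had log2 changes of 0.84 (SE 0.51) in cytoplasmic and 0.69 (SE 0.51) in polysomal RNA. ZEB1 had -0.37 (SE 0.42) and 0.07 (SE 0.42), PRRX1 had 0.46 (SE 0.42) and 0.76 (SE 0.42), and TWIST1 had 0.49 (SE 0.31) and 0.23 (SE 0.31). VIM had 0.45 (SE 1.33) and 0.10 (SE 1.33), and SPARC had -0.05 (SE 1.11) and -0.02 (SE 1.11). The adjusted p of these genes was 0.575 or higher in both fractions. VIM and SPARC overlapped between sheIF6 and shNTC libraries in both fractions, and their standard errors leave room for a change of more than 1 on the log2 scale in either direction. These errors use 1 spread per gene for both lines, H69 included. In a fit of H69M alone VIM had 0.44 (SE 0.37) and 0.10 (SE 0.37) and SPARC -0.05 (SE 0.40) and -0.02 (SE 0.40), so the limit is narrower within H69M.

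In H69 cytoplasmic RNA the fitted log2 changes of VIM, FN1 and SPARC were -5.44, -3.29 and -3.51 (adjusted p = 1 for each). They rest on H69 shNTC cytoplasmic replicate 1, and without it they were 0.76, 0.46 and 1.64. The sheIF6 and shNTC libraries overlapped for all 3. In H69 polysomal RNA, at no more than 2.83 CPM in any library, the changes were 0.10 for VIM, 0.72 for FN1 and 1.49 for SPARC (adjusted p = 1 for each). ZEB1 had -0.47 (SE 0.42) in cytoplasmic and -0.44 (SE 0.43) in polysomal RNA, SNAI2 had -0.05 (SE 0.44) and -0.19 (SE 0.44), TWIST1 had 0.04 (SE 0.31) and 0.23 (SE 0.31), and SNAI1 had -0.11 (SE 0.51) and 0.04 (SE 0.51), all with an adjusted p of 1. PRRX1 had no count in H69 and ZEB2 at most 0.566 CPM, so neither gives a change there.

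The interaction test of the knockdown, H69M minus H69, called 0 of the 10 in either fraction by edgeR and by DESeq2, beside 0.0303% and 0.00433% of all genes by edgeR. At an unadjusted p under 0.05 (4.93% and 5.09% of all genes) there was 1 in each, VIM in cytoplasmic RNA, with 5.89 (SE 2.22) and -0.30 without H69 shNTC cytoplasmic replicate 1, and ZEB2 in polysomal RNA, with -2.84 (SE 1.28, adjusted p = 0.956). The ZEB2 value rests on H69 libraries with at most 0.487 CPM and ranged from -7.76 to -0.48 with 1 of them left out. None of the wider EMT lists, the TGF-beta list or the epithelial list had a gene past the limit in any of the 4 knockdown comparisons.

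**Figure D4:**
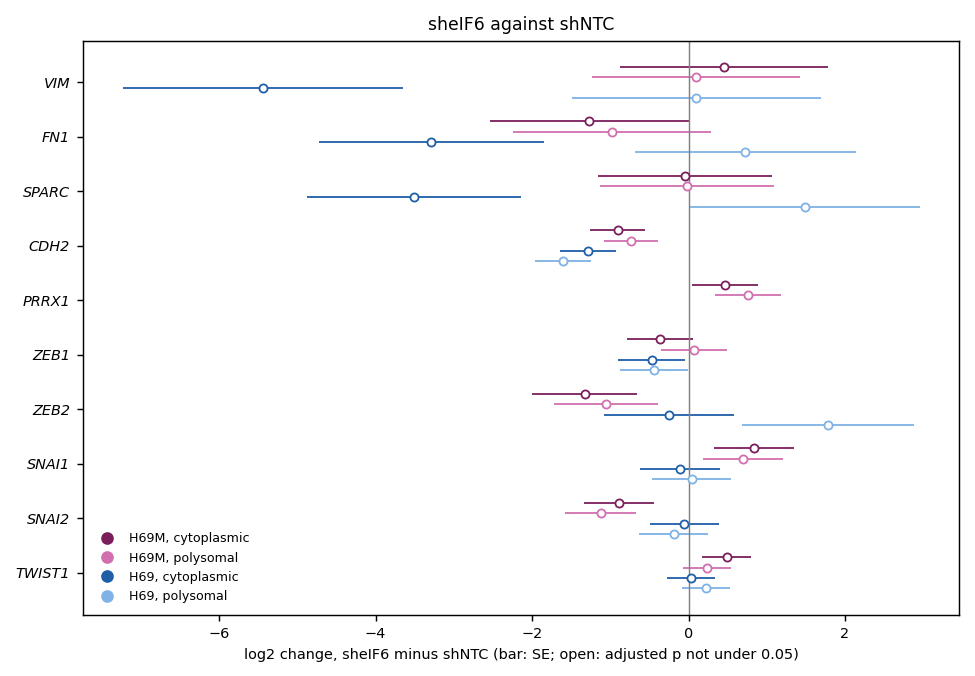
Fitted log2 change, sheIF6 minus shNTC, of each gene in H69M and H69 and in both fractions, with the standard error as a bar; all points are open because none has an adjusted p under 0.05, PRRX1 has no point in H69, and the H69 points of ZEB2 rest on at most 0.566 CPM. The 4 points of CDH2 lie between -0.74 and -1.61, and the low H69 cytoplasmic points of VIM, FN1 and SPARC rest on 1 control library.

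Between the fractions, ZEB1 was the one gene of the 10 whose polysomal libraries lay below the cytoplasmic libraries in both lines and with both shRNAs, as did 8.21% of all genes. Its log2 difference, polysomal minus cytoplasmic, was -1.55 (SE 0.43, adjusted p = 0.0589) in H69M shNTC and -1.26 (SE 0.43, adjusted p = 0.0773) in H69 shNTC cells, so neither passed the limit. With the replicate number as a block within each line, adjusted p was 0.00698 in H69M and 0.00764 in H69 for ZEB1, and DESeq2 gave 0.0124 and 0.0477. Of all genes the block called 11.1% and 18.9% in this comparison, and DESeq2 called 12.1% and 18.5%. A fit of H69 alone gave ZEB1 in H69 -1.19 (SE 0.53, adjusted p = 0.152), and leaving out H69 shNTC cytoplasmic replicate 1 gave -0.89 (SE 0.50, adjusted p = 0.361). Scaling by total counts alone gave ZEB1 -1.81 and -1.64, and moved the median of all genes by -0.25 and -0.35. In H69 the ZEB1 difference ranged from -2.19 (adjusted p = 0.0316) without H69 shNTC polysomal replicate 1 to -0.70 without replicate 2. In H69M it passed without H69 shNTC polysomal replicate 1 (adjusted p = 0.0289) or replicate 2 (0.0285), which are not in that comparison and enter it through the shared estimate of spread. ZEB1-AS1 was also lower in polysomal RNA, at 4.26 and 3.22 CPM against 8.40 and 9.26 in H69M shNTC cytoplasmic libraries.

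None of the 10 passed in edgeR without the replicate block in this comparison of fractions, beside 4.7% of all genes in H69M and 11.8% in H69. At an unadjusted p under 0.05 there were 1 (ZEB1) in H69M, beside 20.3% of all genes, and 2 (ZEB1 and SPARC) in H69, beside 27.2%. DESeq2 called 1 in each line, ZEB1, beside 12.1% of all genes in H69M and 18.5% in H69. In H69 none of the 10 reached that unadjusted p in a fit of H69 alone, which called 21% of the genes tested by adjusted p, or without H69 shNTC cytoplasmic replicate 1. In H69M shNTC cells CDH2, FN1 and VIM were higher in polysomal RNA without overlap (20.8% of all genes) with log2 differences of 0.48 (SE 0.35), 1.02 (SE 1.26) and 0.62 (SE 1.33). PRRX1 (-0.68, SE 0.42) and ZEB2 (-0.42, SE 0.66) were lower without overlap, with ZEB1 (24.5% of all genes). In H69 shNTC cells SNAI1 was higher (0.61, SE 0.51) beside 23% of all genes, and SNAI2 was lower (-0.53, SE 0.44), with ZEB1, beside 32.3%. The H69 value of SPARC was -3.67, 1.48 without H69 shNTC cytoplasmic replicate 1, and -4.65 (adjusted p = 0.034) without replicate 2.

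Knockdown gave no call in the change of polysomal against cytoplasmic RNA, by edgeR or DESeq2, in H69M (0% of all genes by edgeR) or H69 (0%). At an unadjusted p under 0.05 there were 0 in H69M (1.7% of all genes) and 2 in H69 (1.66%), VIM (5.54) and SPARC (5.00), which were -0.66 and -0.15 without H69 shNTC cytoplasmic replicate 1. For ZEB1 this change was 0.44 (SE 0.60) in H69M and 0.03 (SE 0.61) in H69, and for CDH2 it was 0.17 (SE 0.49) and -0.33 (SE 0.50).

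**Figure D5:**
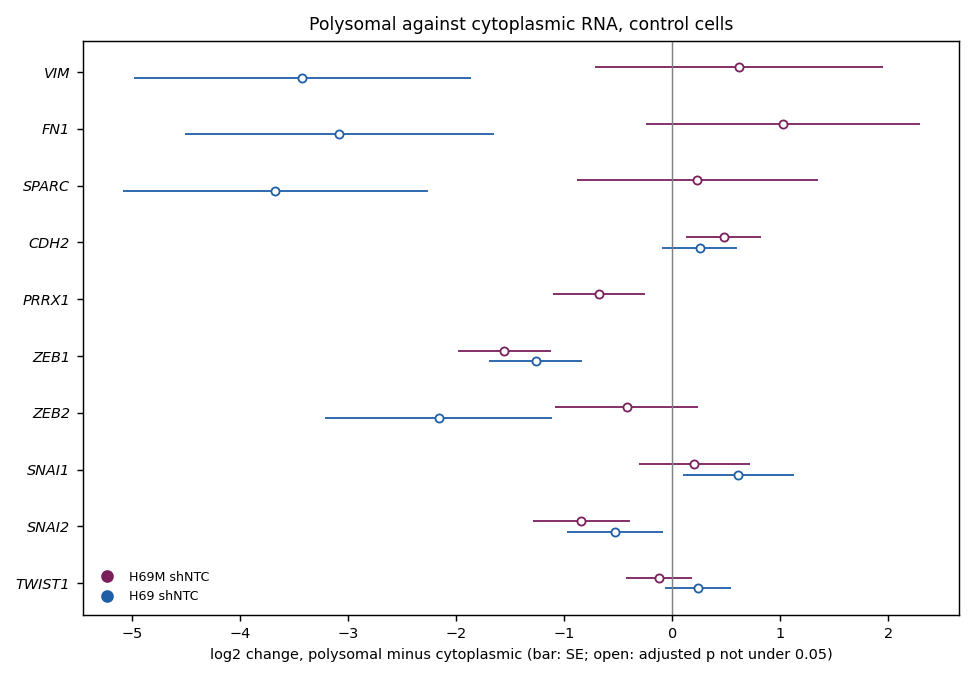
Fitted log2 difference, polysomal minus cytoplasmic, of each gene in H69M shNTC and H69 shNTC cells, with the standard error as a bar; no point has an adjusted p under 0.05 and PRRX1 has no point in H69. ZEB1 lies at -1.55 and -1.26 with short bars, while VIM, FN1 and SPARC have long bars in H69, where they were close to 0 in all but 1 library.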

How the data were processed

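The authors deposited a table of raw counts per gene for all 16 libraries. The submitters' processing notes name STAR, HTSeq and GRCh38, and the versions, the annotation release and the strand setting are not given in the sources used here. The kit named in the labels' protocols, NEBNext Ultra RNA, does not mark strand. Reads where genes on opposite strands overlap therefore cannot be told apart by strand, and how the counting treated them is not known here.

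The analysis used edgeR 4.0.16 with limma 3.58.1 under R 4.3.3. Genes were kept by filterByExpr (minimum count 10), which left 23100, and scaled by TMM. The quasi-likelihood model, with robust dispersion, had 1 mean per group (8 groups, 8 residual degrees of freedom, common dispersion 0.153). P-values were adjusted by Benjamini-Hochberg over all genes, with a limit of 0.05. SE was taken from the F statistic, as the size of the log2 change over the root of F. CPM uses TMM library sizes. Log2 CPM for the correlations used a prior count of 2. A group with no count was set to 3 counts over the group. Pooled over genes, replicates differed by 24.8 to 244 times the variance of counting alone, so for well-counted genes their spread, not depth, limits precision. That does not cover genes with few or no counts in H69, such as ZEB2 and PRRX1. The fit was also run on simulated data with changes placed in well-counted genes, and the outcome is not reported here. That run does not bear on genes with few or no counts in H69.

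Alternatives were RLE scaling, total-count scaling, no filter, a stricter filter (50 counts in 2 libraries), DESeq2 1.42.0, the replicate number as a block within each line, each library left out, and H69 shNTC replicate 1 left out in both fractions. Fits of each line alone were chosen after seeing the data. Same-numbered libraries deviated together within a line (r = 0.168 to 0.28 in 6 pairs of H69 groups, 0.172 to 0.578 in 6 of H69M). They did not between lines (-0.107 to 0.0457). The block therefore takes the numbers to pair libraries within a line, while the fit reported has no block and leaves such a pairing out. With the block, ZEB1 passed between fractions in both lines, and no member passed in the knockdown. The labels do not state a pairing.

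The 10 genes and the gene lists were chosen with earlier results of these data known. Named beside them are EIF6, in each list the 3 genes called higher and the 3 called lower with the largest change between the shNTC lines in cytoplasmic RNA and, in the higher group, a mean count of 100 or more, and the 3 genes most like VIM and ZEB1. Library-marker genes, ZEB1-AS1, CDH1, PRRX2, the fibroblast markers, VWF and the miR-200 rows were named after their values were seen. Some genes that this rule names are not reported here. Gene positions are from GENCODE v29.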

Additional observations from a re-analysis of the deposited data

How the results depend on the processing

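The count of the 10 genes higher in H69M was 7 under RLE and total-count scaling, both filters, DESeq2 and the replicate block, and 6 to 7 in sheIF6 cytoplasmic RNA when 1 library was left out, with 7 in the other 3 line comparisons. The knockdown counts were 0 under these settings, in fits of each line alone and with any library left out, except 1 (CDH2) in H69 polysomal RNA by DESeq2. The count for polysomal against cytoplasmic RNA in shNTC cells, 0 in the fit reported, was 1 (ZEB1) in H69M with total-count scaling, the stricter filter, DESeq2, the replicate block, and without H69 shNTC replicate 1 in both fractions. Of the genes tested, total-count scaling, the stricter filter, DESeq2 and the replicate block called 5.62%, 8.09%, 12.1% and 11.1% in H69M. In H69 the count was 1 (ZEB1) with total-count scaling, DESeq2 and the replicate block, beside 13.9%, 18.5% and 18.9% of all genes. With 1 library left out it ran from 0 to 1 in both lines. The replicate block changed no other call of these genes.

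With total-count scaling, TWIST1 in sheIF6 cytoplasmic RNA, H69M against H69, was -0.023 and not 0.20, and this scaling moved the median of all genes by -0.22 there and by -0.14 in shNTC cytoplasmic RNA. Without H69 shNTC replicate 1 in both fractions the H69 knockdown changes in cytoplasmic RNA were 0.76 (VIM), 0.46 (FN1) and 1.64 (SPARC), the VIM interaction was -0.30, SPARC polysomal against cytoplasmic was 2.46, and the changes of that difference under knockdown were -1.64 (VIM) and -1.13 (SPARC). With 1 library left out, these ranged for VIM from -6.43 to 0.76 in the knockdown, from -0.30 to 6.89 in the interaction and from -0.66 to 13.86 in the change of the fraction difference. For FN1 the knockdown change ranged from -4.23 to 0.46. For SPARC the ranges were -4.49 to 1.64, -10.69 to 1.48 for the fractions and -0.15 to 12.02 for their change. When a group was left with 1 library, it was given the spread of the other groups. Over all genes the H69M cytoplasmic knockdown gave 36 calls in the fit reported, 268 with the replicate block, 456 by DESeq2 and 9 in H69M alone. In H69M polysomal RNA these were 15, 203, 330 and 0.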
